A study of Mus musculus with 9 samples.

Results

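Glutamate receptors and their auxiliary subunits were followed in single cells of the developing mouse ventral midbrain. The set holds 34 genes, chosen by name, of the 32661 genes that remained in the deposited tables once spike-in and mitochondrial entries had been left out. They are 4 AMPA receptor subunits, 6 NMDA receptor subunits, 6 kainate or delta receptor subunits, 6 metabotropic receptors, 10 auxiliary subunits of AMPA receptors and 2 auxiliary subunits of kainate receptors. All 34 had at least 1 count, and 33 passed the filter on low counts. Grin2c, which encodes an NMDA receptor subunit, had 30 counts over all plates and was not tested.

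The cells came from VGAT-Cre:Ai14:Pitx3-GFP mice at embryonic day 16 (E16) or postnatal day 0 (P0), and every group carried these 3 alleles. Cre under VGAT (Slc32a1) control turns on tdTomato for good, so tdTomato marks a past or present use of that gene, and GFP marks expression of Pitx3, a transcription factor of midbrain dopamine neurons. Cells with tdTomato were sorted onto 4 plates at E16 and 3 plates at P0 (VGAT plates), and cells with both proteins onto 1 plate at each stage (VGAT+Pitx3 plates). The plate was the replicate, and since the labels do not tie plates to animals, p-values measure the spread between plates, which may be technical. Between the sorts this spread comes mostly from the 7 VGAT plates, and the 2 VGAT+Pitx3 plates are assumed to vary like them. Anything else that set these 2 plates apart cannot be told from the sort.

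Glutamate opens ionotropic receptors, which are tetramers of AMPA, NMDA or kainate subunits, and it also acts on metabotropic receptors that signal through G proteins. AMPA receptors carry fast excitation and become permeable to calcium where they lack the edited GluA2 subunit, NMDA receptors need glutamate and depolarization together, and kainate receptors act on both sides of the synapse. Auxiliary subunits such as the TARPs (Cacng genes), the cornichons (Cnih genes), the Shisa proteins and the Neto proteins set how many receptors reach the membrane and how fast they close. In the ventral midbrain, glutamate input drives both dopamine neurons and GABAergic neurons of the substantia nigra and ventral tegmental area (VTA).

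Of 3455 wells, 2035 cells were kept, 1460 on VGAT and 575 on VGAT+Pitx3 plates, and the total per plate was between 1435919 and 5408710 counts. Levels are given as CPM, the counts scaled to a common library size, and 3 counts correspond to between 0.555 and 2.09 CPM on a plate. The column names carry 2 plate labels, which name different stages for 4 of the 9 plates (VGAT E16 replicates 3 and 4, VGAT P0 replicates 1 and 3). The first was used because it matches the sample titles. VGAT P0 replicate 1 stood apart with 44 cells. The dopaminergic genes Pitx3, Th, Ddc, Slc6a3 and Slc18a2 summed to between 21.1 and 53.0 CPM on VGAT plates and to 2481 and 1964 CPM on VGAT+Pitx3 plates. Of the GABAergic markers, Slc32a1 was at 158 to 325 CPM and at 225 and 285 CPM in the same order, while Gad1 was at 796 to 1209.8 CPM but at 14.5 and 10.3 CPM. Gad2 went the other way from Gad1, at 493 to 650 CPM on VGAT plates and at 936 and 1045 CPM on VGAT+Pitx3 plates. The 6 astrocyte and radial glia markers summed to 3.45 to 11.6 CPM on the VGAT plates other than P0 replicate 2, where they reached 367 CPM, and to 151 and 145 CPM on the VGAT+Pitx3 plates. Gfap was at 0 counts on 7 of the 9 plates. The 5 oligodendrocyte lineage markers summed to 24.6 and 36.8 CPM on the VGAT+Pitx3 plates and to 0 to 50.0 CPM on VGAT plates, highest on P0 replicate 2. Slc17a6, which marks glutamatergic neurons, was at 106 and 206 CPM on the VGAT+Pitx3 plates, with a median of 1.78 CPM and its highest value on P0 replicate 2 among the VGAT plates. The other glutamatergic markers were not higher there. Slc17a7 was at 0.452 and 0.449 CPM on VGAT+Pitx3 and 0 to 2.78 CPM on VGAT plates. Slc17a8 was at 1.36 and 4.04 CPM and at 1.33 to 10.2 CPM in the same order. The part of these cells in the results was not tested.

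The comparison between the sorts asked how the receptor genes of cells with both labels differed from those of the other VGAT cells at the same stage. Of the 33 members tested, 5 were higher and 8 lower on the VGAT+Pitx3 plates. The share called was 39.4% of the members, against 8.93% of the 14624 genes tested (4.73% higher and 4.2% lower), a comparison limited by the choice of the genes with earlier results of these data known. The higher ones were the AMPA receptor subunit Gria3, the kainate receptor subunit Grik4, the delta receptor subunit Grid1 and the auxiliary subunits Cacng3 and Shisa6. The lower ones were Gria1, Grik2, Cnih3, Neto1 and the metabotropic receptors Grm3, Grm4, Grm5 and Grm7. Within a plate sum, fewer cells with a gene and less of its RNA per cell cannot be told apart. The members' median absolute log2 fold change was 0.34, and that of all genes tested 0.21.

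**Figure D1:**
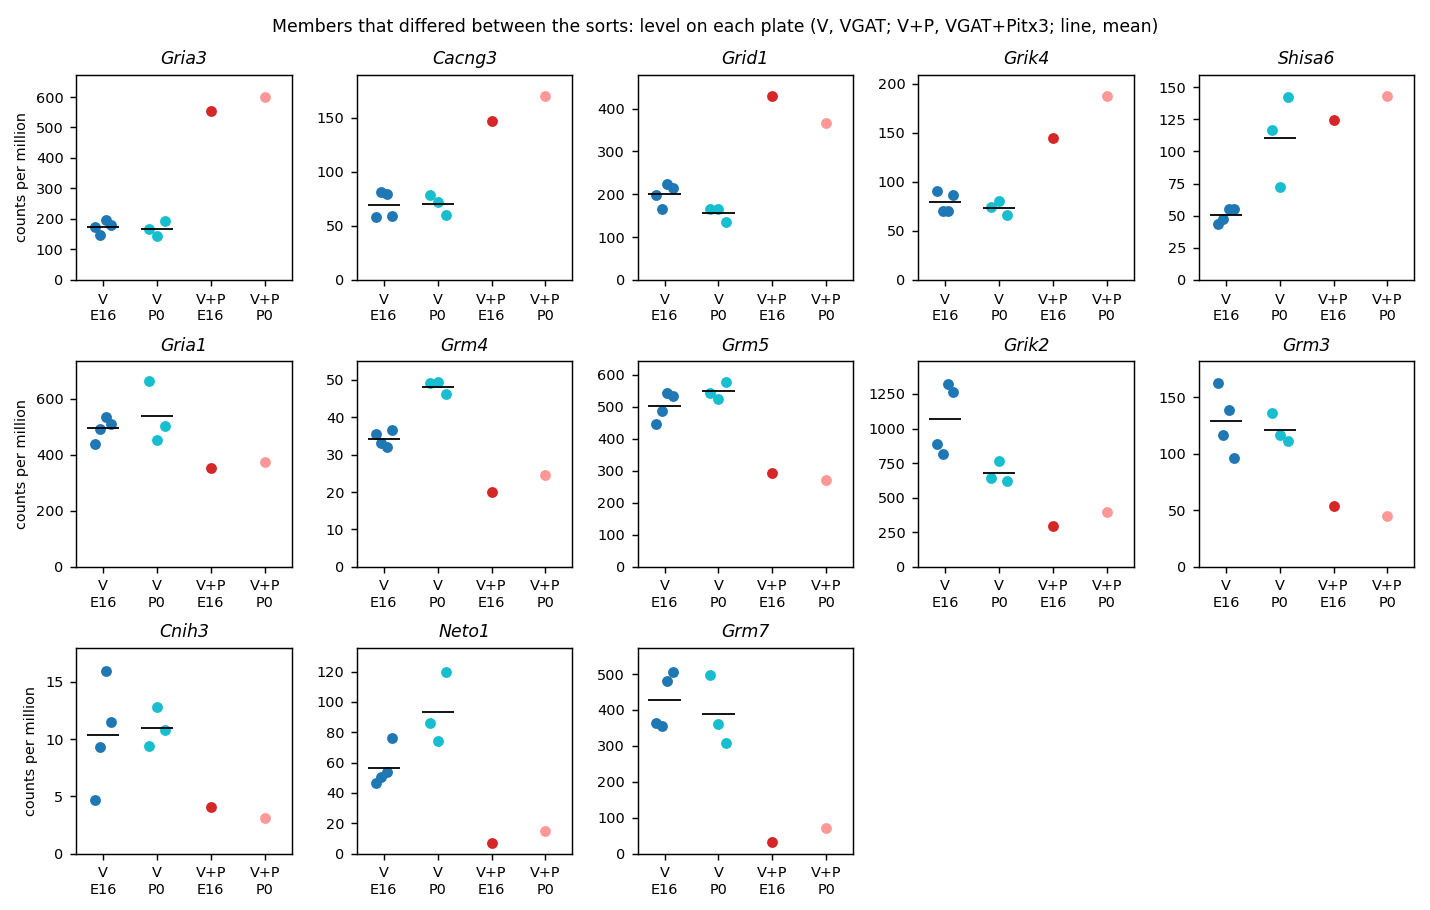
Level of the 13 members that differed between the sorts, in CPM (vertical axis, from 0) on each of the 9 plates, with V for VGAT plates, V+P for VGAT+Pitx3 plates and a line at the mean where a group has several plates. Both VGAT+Pitx3 plates lie outside the range of the 7 VGAT plates for every gene shown except Shisa6, and Grm7 and Neto1 fall furthest.

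Among AMPA receptor subunits, Gria3 (GluA3; chrX:41400854-41678601, plus strand, GRCm38) lay between 146 and 195 CPM, with a median of 174 CPM, on the 7 VGAT plates. It was at 554 CPM on the E16 and 601 CPM on the P0 VGAT+Pitx3 plate. Both were above every VGAT plate, with a log2 fold change of 1.75 (SE 0.13, edgeR adjusted p = 3.0e-07). Gria3 was found in 25.9% to 42.6% of the cells of VGAT plates after each cell had been thinned to 4000 counts and in 74.2% and 77.9% of those of the E16 and P0 VGAT+Pitx3 plates. Without thinning these shares were 44.7% to 65.9% and 92.4% and 88.6%. In the cells with Gria3, the mean was 1.99 thinned counts on VGAT and 3.14 on VGAT+Pitx3 plates, so that both the share with a count and the mean count were higher. The share with a count also rises with the level per cell, so it does not show that more cells used the gene. Gria1 (GluA1) lay between 439.5 and 663 CPM, with a median of 501 CPM, on VGAT plates and at 352 CPM on the E16 and 373 CPM on the P0 VGAT+Pitx3 plate. The groups did not overlap, with a log2 fold change of -0.51 (SE 0.15, edgeR adjusted p = 0.0482), but this call was lost when any plate other than VGAT P0 replicate 2 was left out (adjusted p up to 0.280). Gria2 (GluA2) had a log2 fold change of 0.32 (SE 0.13, edgeR adjusted p = 0.180), and Gria4 (GluA4) a log2 fold change of -0.37 (SE 0.15, edgeR adjusted p = 0.195), and neither passed the threshold.

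The make-up of the AMPA receptor counts differed between the sorts. Gria3 gave 7.23% to 10.0% of the counts of Gria1 to Gria4 on VGAT plates and 24.0% and 24.8% on the E16 and P0 VGAT+Pitx3 plates. Gria4 gave 29.0% to 32.0% and 18.7% and 22.0%, and Gria1 21.2% to 30.5% and 15.2% and 15.4%. The share of Gria2 overlapped between the sorts, at 31.0% to 40.2% on VGAT plates and 42.1% and 37.8% on the others. In spliced counts, which leave out intronic reads, Gria2 took 58.3% to 70.8% and 63.6% and 63.4%, and Gria3 6.00% to 9.33% and 20.5% and 19.6%. These are shares of counts and not of receptor protein, and they are not corrected for the length of the genes, so they are read across plates and not across subunits. They were not tested.

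**Figure D2:**
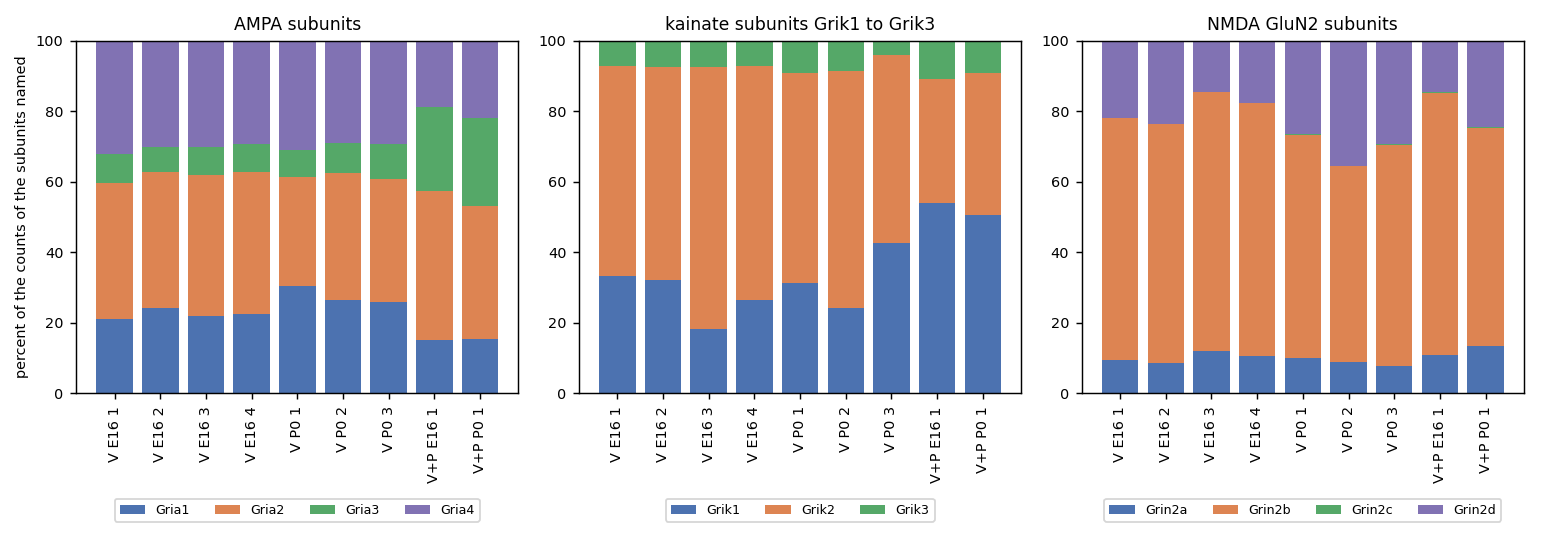
Percent of counts (vertical axis) that each subunit gave to the summed counts of the AMPA subunits, of Grik1 to Grik3 and of the GluN2 subunits Grin2a to Grin2d on each plate (V, VGAT; V+P, VGAT+Pitx3; the number is the replicate). Gria3 and Grik1 take a larger share on the VGAT+Pitx3 plates, and Grin2d a larger share on P0 than on E16 plates.

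Kainate and delta receptor genes moved in both directions. Grik2 (GluK2; chr10:49094833-49788766, minus strand) lay between 623 and 1324 CPM, with a median of 812 CPM, on VGAT plates and at 294 CPM on the E16 and 396 CPM on the P0 VGAT+Pitx3 plate. Both were below every VGAT plate, with a log2 fold change of -1.29 (SE 0.25, edgeR adjusted p = 0.00391), and without the E16 VGAT+Pitx3 plate the log2 fold change was -0.78 (adjusted p = 0.172). It was found in 72.8% to 86.9% of thinned VGAT cells and in 52.8% and 59.4% of VGAT+Pitx3 cells. The share of Grik2 in the counts of Grik1 to Grik3 was 53.4% to 74.3% on VGAT and 35.4% and 40.1% on VGAT+Pitx3 plates, and that of Grik1 (GluK1) 18.3% to 42.5% and 53.9% and 50.7%. Grik4 (GluK4; chr9:42518135-42944493, minus strand), a subunit that needs one of GluK1 to GluK3 to form a channel, lay between 66.3 and 91.2 CPM, with a median of 74.0 CPM, on VGAT plates and at 145 CPM on the E16 and 188 CPM on the P0 VGAT+Pitx3 plate. The plates did not overlap, with a log2 fold change of 1.10 (SE 0.14, edgeR adjusted p = 9.1e-05). Grid1 (GluD1; chr14:34820108-35583379, plus strand), a delta receptor known as a synaptic adhesion protein that binds cerebellins, lay between 136 and 225 CPM, with a median of 166 CPM, on VGAT plates. It was at 429 CPM on the E16 and 367 CPM on the P0 VGAT+Pitx3 plate, above every VGAT plate, with a log2 fold change of 1.17 (SE 0.13, edgeR adjusted p = 2.0e-05). Grik1, Grik3 and Grik5 did not pass the threshold (log2 fold changes of 0.23, -0.12 and 0.03).

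Of the 6 metabotropic receptors, 4 were lower and none was higher on VGAT+Pitx3 plates. The largest fall was that of Grm7 (mGluR7; chr6:110645581-111567230, plus strand), a presynaptic receptor coupled to inhibitory G proteins. Grm7 lay between 309 and 506 CPM, with a median of 364 CPM, on VGAT plates and at 32.6 CPM on the E16 and 70.4 CPM on the P0 VGAT+Pitx3 plate, which is a log2 fold change of -3.06 (SE 0.30, edgeR adjusted p = 7.1e-06) and 8.33-fold lower. It was found in 48.5% to 62.8% of thinned VGAT cells and in 7.02% and 18.9% of VGAT+Pitx3 cells. Grm3 (mGluR3; chr5:9485541-9725170, minus strand), a receptor of the same coupling found in neurons and in astrocytes, lay between 96.8 and 163 CPM, with a median of 117 CPM, on VGAT plates and at 53.6 CPM on the E16 and 44.9 CPM on the P0 VGAT+Pitx3 plate. All VGAT plates were above both, with a log2 fold change of -1.33 (SE 0.19, edgeR adjusted p = 2.3e-04). Grm4 (mGluR4) lay between 31.9 and 49.4 CPM, with a median of 36.5 CPM, and was at 20.1 CPM on the E16 and 24.7 CPM on the P0 VGAT+Pitx3 plate, again without overlap and with a log2 fold change of -0.85 (SE 0.15, edgeR adjusted p = 0.00137). Grm5 (mGluR5), which couples to phospholipase C on the postsynaptic side, lay between 447 and 579 CPM, with a median of 535 CPM, on VGAT plates. Its level of 294 CPM on the E16 and 271 CPM on the P0 VGAT+Pitx3 plate was below all of them, with a log2 fold change of -0.89 (SE 0.13, edgeR adjusted p = 3.1e-04). Grm8 had a log2 fold change of -0.32 (adjusted p = 0.404), and Grm2 had a log2 fold change of 0.87 (SE 0.26, edgeR adjusted p = 0.0535), a call that was made under 7 of the 18 alternatives.

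Auxiliary subunits gave both the second largest fall and 2 of the 5 higher genes. Neto1, a transmembrane protein that slows kainate receptors and also associates with NMDA receptors, lay between 46.6 and 119.7 CPM, with a median of 74.4 CPM, on VGAT plates. It was at 7.01 CPM on the E16 and 15.2 CPM on the P0 VGAT+Pitx3 plate, below every VGAT plate, with a log2 fold change of -2.82 (SE 0.27, edgeR adjusted p = 5.5e-06), or 7.08-fold. Its relative Neto2 had a log2 fold change of -0.10 (adjusted p = 0.795). Neto1 was found in 10.9% to 24.3% of thinned VGAT cells and in 2.68% and 2.81% of VGAT+Pitx3 cells. Cacng3 (TARP gamma-3; chr7:122670492-122769393, plus strand) lay between 58.1 and 81.0 CPM, with a median of 72.2 CPM, on VGAT plates and at 147 CPM on the E16 and 170.4 CPM on the P0 VGAT+Pitx3 plate. The groups stood apart, with a log2 fold change of 1.18 (SE 0.15, edgeR adjusted p = 7.1e-05). Shisa6, which keeps AMPA receptors from desensitizing, lay between 43.6 and 142 CPM, with a median of 55.3 CPM, on VGAT plates and at 125 CPM on the E16 and 143 CPM on the P0 VGAT+Pitx3 plate. Here VGAT P0 replicate 3, at 142 CPM, lay between the 2 VGAT+Pitx3 plates. The test gave a log2 fold change of 0.89 (SE 0.22, edgeR adjusted p = 0.0162), and the log2 fold change was 0.35 (adjusted p = 0.638) without the E16 VGAT+Pitx3 plate. Cnih3, a cornichon, had only 310 counts in all. It lay between 4.68 and 15.97 CPM, with a median of 10.8 CPM, on VGAT plates and at 4.07 CPM on the E16 and 3.14 CPM on the P0 VGAT+Pitx3 plate, with a log2 fold change of -1.52 (SE 0.43, edgeR adjusted p = 0.0407), a call that held in 2 of the 9 fits without 1 plate.

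The other auxiliary subunits did not pass the threshold in this comparison. Cacng2 (stargazin, the founding TARP) lay between 137 and 163 CPM, with a median of 149.7 CPM, on VGAT plates and at 177 CPM on the E16 and 162 CPM on the P0 VGAT+Pitx3 plate, and Cacng4 between 336 and 419 CPM, with a median of 372 CPM, and at 387 CPM on the E16 and 369.6 CPM on the P0 VGAT+Pitx3 plate. Cnih2, the other cornichon, lay between 528 and 1069.9 CPM, with a median of 639 CPM, on VGAT plates. The low genes Cacng7 and Cacng8 had medians of 13.3 and 9.61 CPM on these plates. Grm2, which sits with Grm3 in the group II of metabotropic receptors, lay between 10.6 and 33.3 CPM, with a median of 19.5 CPM, on VGAT plates and Grik5 (GluK5) between 149 and 238 CPM, with a median of 163 CPM, there. None of the 5 NMDA receptor subunits tested passed the threshold between the sorts, with log2 fold changes from -0.34 for Grin3a to 0.46 for Grin2a. Without the E16 VGAT+Pitx3 plate, Grin2a was called higher (log2 fold change 1.01, edgeR adjusted p = 0.0379), and its log2 fold change was between -0.11 and 1.01 over the 9 fits without 1 plate. Grin2b (GluN2B), the subunit of young synapses, was at 468 CPM on the E16 and 579 CPM on the P0 VGAT+Pitx3 plate and lay between 405 and 574 CPM, with a median of 454 CPM, on VGAT plates, so that the groups overlapped.

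Members that differed only in another comparison were spread as follows over the plates. Gria2 lay between 620.5 and 979.5 CPM, with a median of 785 CPM, on VGAT plates and at 973 CPM on the E16 and 915 CPM on the P0 VGAT+Pitx3 plate, and Gria4 between 497 and 733 CPM, with a median of 665 CPM, on VGAT plates and at 431 CPM on the E16 and 533 CPM on the P0 VGAT+Pitx3 plate. Grin1 lay between 83.5 and 196 CPM, with a median of 105 CPM, and was at 91.6 CPM on the E16 and 149 CPM on the P0 VGAT+Pitx3 plate. For all of the genes of this paragraph the 2 sorts overlapped. Grin3a lay between 276 and 453 CPM, with a median of 355 CPM, on VGAT plates and at 239 CPM on the E16 and 325 CPM on the P0 VGAT+Pitx3 plate. Grik1 lay between 273 and 508 CPM, with a median of 433 CPM, on VGAT plates and at 448 CPM on the E16 and 502 CPM on the P0 VGAT+Pitx3 plate, and Grik3 between 47.3 and 139 CPM, with a median of 99.6 CPM, on VGAT plates and at 89.1 CPM on the E16 and 91.0 CPM on the P0 VGAT+Pitx3 plate. Among the metabotropic and auxiliary genes, Grm8 lay between 252 and 435 CPM, with a median of 299.6 CPM, on VGAT plates and at 253 CPM on the E16 and 251 CPM on the P0 VGAT+Pitx3 plate. Shisa9 lay between 52.2 and 122 CPM, with a median of 71.0 CPM, and was at 62.0 CPM on the E16 and 96.9 CPM on the P0 VGAT+Pitx3 plate. Neto2 lay between 156 and 204 CPM, with a median of 180.3 CPM, and was at 154 CPM on the E16 and 186 CPM on the P0 VGAT+Pitx3 plate. Cacng5 was at 8.82 CPM on the E16 and 11.2 CPM on the P0 VGAT+Pitx3 plate and lay between 2.46 and 24.5 CPM, with a median of 7.86 CPM, on VGAT plates.

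In the wider pathway, 3 of 17 genes of AMPA receptor assembly, trafficking and clustering and 3 of 21 genes of the postsynaptic scaffold passed the threshold between the sorts, or 17.6% and 14.3% against 8.93% of all genes. Homer2, a scaffold that binds group I metabotropic receptors, was higher (log2 fold change 1.8, SE 0.18, edgeR adjusted p = 7.1e-06), as were the PDZ protein Grip2, which holds GluA2 and GluA3 (log2 fold change 1.10, SE 0.13, edgeR adjusted p = 2.8e-05), and the scaffold Dlg1 (log2 fold change 1.04, SE 0.18, edgeR adjusted p = 0.00134). The secreted pentraxin Nptx2, which clusters AMPA receptors, was lower (log2 fold change -2.09, SE 0.61, edgeR adjusted p = 0.0458), and so was the scaffold protein Dlgap2 (log2 fold change -1.08, SE 0.22, edgeR adjusted p = 0.00465). The remaining gene of the 6 was lower too. Pick1 was not analysed here.

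Removing the 4 plates whose labels name different stages left 12 members called between the sorts, 11 of the 13 and Grin2d (log2 fold change -0.56, edgeR adjusted p = 0.0429). Of the 13 genes, Gria1 (log2 fold change -0.36, edgeR adjusted p = 0.154) and Cnih3 (-1.23, adjusted p = 0.145) did not pass there, while Gria3, Grm7 and Neto1 stood at 1.89, -2.98 and -2.57. This choice of plates was made after the column names had been seen. Gria3, Grik4, Grid1, Grm3, Grm4, Grm5, Grm7, Cacng3 and Neto1 passed the threshold under each of the 18 alternatives tried.

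**Figure D3:**
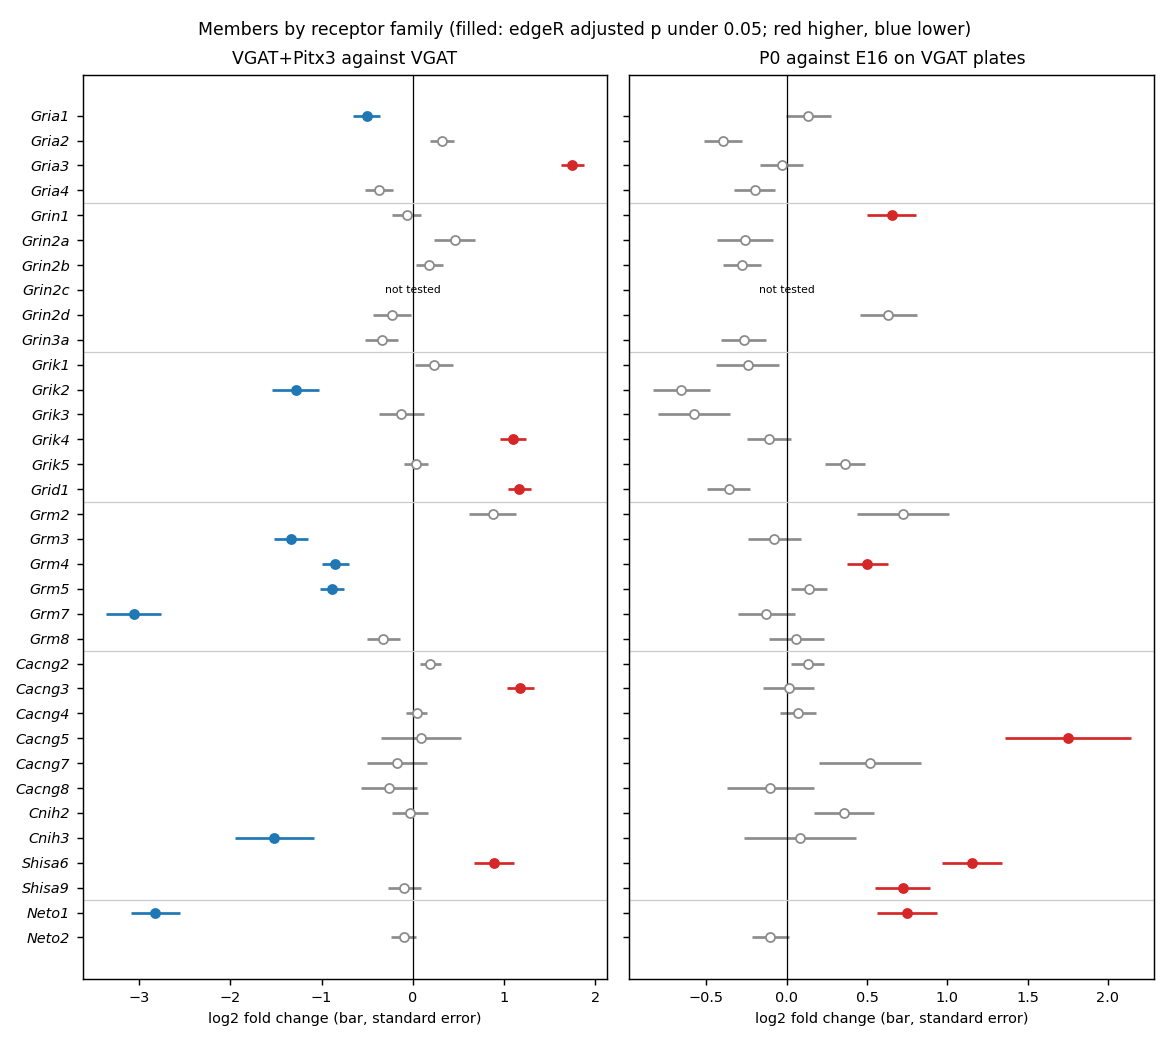
Log2 fold change with its standard error (horizontal axis) of the 33 members tested, grouped by receptor family, for VGAT+Pitx3 against VGAT plates (left) and for P0 against E16 on VGAT plates (right, on a narrower scale). Filled points passed the edgeR threshold, 13 on the left and 6 on the right, and the 6 on the right all lie above 0.

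The comparison between stages asked how the same genes changed around birth in VGAT cells. Of 33 members, 6 were called higher at P0 and none lower in edgeR's fit, while 2.84% of the 13639 genes tested were higher and 1.74% lower (4.58% in all). The members that rose were the obligatory NMDA receptor subunit Grin1, the metabotropic receptor Grm4 and the auxiliary subunits Shisa6, Shisa9, Cacng5 and Neto1. Shisa6 was at 43.6, 47.7, 55.1 and 55.3 CPM on the 4 E16 plates and 72.2, 116 and 142 CPM on the 3 P0 plates. Every P0 plate was above every E16 plate, with a log2 fold change of 1.15 (SE 0.19, edgeR adjusted p = 0.0110). Grin1 (GluN1) was at 83.5, 101, 102 and 105 CPM on the 4 E16 plates and 125, 138 and 196 CPM on the 3 P0 plates. The plates did not overlap, and the test gave a log2 fold change of 0.65 (SE 0.15, edgeR adjusted p = 0.0361). Shisa9, which modulates AMPA receptors at synapses, was at 52.2, 64.3, 70.7 and 71.0 CPM on the 4 E16 plates and 72.6, 119 and 122 CPM on the 3 P0 plates. Its P0 plates were again all higher, with a log2 fold change of 0.72 (SE 0.17, edgeR adjusted p = 0.0367). Grm4 was at 31.9, 33.1, 35.5 and 36.5 CPM on the 4 E16 plates and 46.1, 49.1 and 49.4 CPM on the 3 P0 plates, without overlap and with a log2 fold change of 0.50 (SE 0.13, edgeR adjusted p = 0.0449).

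Neto1 was at 46.6, 50.5, 53.8 and 75.9 CPM on the 4 E16 plates and 74.4, 86.1 and 119.7 CPM on the 3 P0 plates. The lowest P0 plate was below the highest E16 plate, and the gene had a log2 fold change of 0.75 (SE 0.19, edgeR adjusted p = 0.0443). Cacng5, an atypical TARP, was the lowest of the 6 genes in counts, with 302 in all. It was at 2.46, 3.37, 7.42 and 7.86 CPM on the 4 E16 plates and 9.42, 17.8 and 24.5 CPM on the 3 P0 plates, with no overlap and a log2 fold change of 1.75 (SE 0.39, edgeR adjusted p = 0.0325). The stage calls rested on few plates. Leaving out 1 plate at a time gave between 0 and 6 members called, with 0 without VGAT P0 replicate 3, 1 without each of VGAT E16 replicates 1 and 3 and VGAT P0 replicate 2, and 2 without VGAT E16 replicate 4. Shisa6 passed in 6 of these 7 fits, Grin1, Shisa9 and Cacng5 in 2, Neto1 in 1 and Grm4 in 0. On the 3 VGAT plates whose labels name the same stage, Grin1 (log2 fold change 0.91, edgeR adjusted p = 0.00939) and Shisa9 (log2 fold change 0.94, edgeR adjusted p = 0.0261) passed, and so did Grin2d, Grik1 and Cacng7 (log2 fold changes of 0.84, -0.77 and 1.34). The other 4 genes had the same direction with adjusted p-values between 0.0602 and 0.139. The only P0 plate among these 3 is replicate 2, which carries the glial markers given above, so the spread came from 2 E16 plates alone, the lone P0 plate being assumed to vary like them, and these p-values give the stage calls little backing.

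A further 7 members had plates that did not overlap between stages but did not pass the threshold, and of all genes tested, called or not, 9.87% were higher and 10.6% lower in this way (20.5% in all). The called members other than Neto1 were without overlap too, so the 7 alone are not the count to set against these shares. Of the 7, Gria2, Grik2, Grin2b and Grid1 were lower and Grin2d, Grik5 and Cacng2 higher at P0. Grik2 was at 812, 888, 1263 and 1324 CPM on the 4 E16 plates and 623, 640.4 and 762 CPM on the 3 P0 plates, lower at P0 on every plate, with a log2 fold change of -0.66 (SE 0.18, edgeR adjusted p = 0.0530). It was called lower under 6 of 16 alternatives, with DESeq2 (adjusted p = 0.00760) and in spliced counts (adjusted p = 0.0484) among them. With no filter on low counts Gria2, Grid1 and Grik3 were called lower too (log2 fold changes of -0.48, -0.45 and -0.67), and with DESeq2 Gria2 was. Within E16, replicates 3 and 4, which carry a second label of P0, were the higher pair for Grik2 and Gria2. On the VGAT plates whose labels name the same stage, Grik2 was at 888 and 812 CPM at E16 and 762 CPM at P0. Over the 16 alternatives, the log2 fold change lay between -0.77 and -0.16 for Grik2. For Grin2b it lay between -0.36 and -0.06, and for Grid1 between -0.45 and 0.03. Gria2 was at 785, 799, 912 and 979.5 CPM on the 4 E16 plates and 620.5, 669 and 673 CPM on the 3 P0 plates, with a log2 fold change of -0.40 (SE 0.12, edgeR adjusted p = 0.0717), and Grin2d (GluN2D) at 113, 128, 144 and 168 CPM on the 4 E16 plates and 170.2, 189 and 279 CPM on the 3 P0 plates, with a log2 fold change of 0.63 (SE 0.18, edgeR adjusted p = 0.0590). Grin2d was called higher under 5 of 16 alternatives, with DESeq2 (adjusted p = 0.0217) and no filter on low counts (adjusted p = 0.00350) among them. The log2 fold changes of the other 4 were -0.28 for Grin2b, -0.36 for Grid1, 0.36 for Grik5 and 0.13 for Cacng2 (edgeR adjusted p between 0.103 and 0.476). Among the GluN2 subunits, Grin2d gave 14.4% to 23.6% of the counts on VGAT E16 plates and 26.5% to 35.4% on VGAT P0 plates. Grin2b gave 67.7% to 73.3% at E16 and 55.5% to 63.2% at P0. Grin2a, the subunit of mature synapses, gave 8.59% to 12.1% and 7.80% to 10.1%. Of the 17 genes of AMPA receptor assembly, trafficking and clustering, 1 rose, Prrt2, a synaptic protein that binds AMPA receptor complexes (log2 fold change 1.07, SE 0.21, edgeR adjusted p = 0.0207).

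A difference between the sorts in the change from E16 to P0 was tested as an interaction. None of the 33 members and none of the 15724 genes passed (0% called) with edgeR, with 6 members and 998 genes at an unadjusted p under 0.05. DESeq2 called 3 genes and no member. Each VGAT+Pitx3 group has 1 plate here, whose spread was taken to equal that of the VGAT plates. Grin2a had the smallest p of the members, with a log2 fold change of 1.11 (SE 0.35, edgeR adjusted p = 0.773). It was at 69.0 CPM on the E16 and 124 CPM on the P0 VGAT+Pitx3 plate, against 61.0, 63.3, 77.1 and 94.3 CPM on the 4 E16 plates and 50.5, 64.6 and 71.1 CPM on the 3 P0 plates among the VGAT plates.

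Within the VGAT+Pitx3 plates, cells were split by Slc6a3, the dopamine transporter gene, which had at least 1 count after thinning to 4000 counts in 142 of 299 cells at E16 and 109 of 249 cells at P0. The 2 plates are of different stages and no test was run, so levels are given for both plates. Of 30 members with more than 3 counts in every sum, 18 were lower and 5 higher in Slc6a3 cells on both plates, and 7 of these 18 and 2 of these 5 differed by over 1.5-fold on both. Of the 11665 genes with as many counts, 30% were lower and 31% higher on both plates, and 4.54% were lower and 3.81% higher by over 1.5-fold on both. Slc6a3 cells had 1.13 times the median counts of the other cells at E16 and 1.07 times at P0.

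Grik3 (GluK3) stood at 142 against 28.2 CPM on the E16 plate and 168 against 24.9 CPM on the P0 plate, 5.04-fold and 6.75-fold higher in Slc6a3 cells. Shisa9 followed with 94.9 against 24.2 CPM on the E16 plate and 129 against 65.6 CPM on the P0 plate. Neither passed the threshold between the sorts, where Grik3 had a log2 fold change of -0.12 and Shisa9 of -0.09. Grm8 (mGluR8) was at 75.1 against 422 CPM on the E16 plate and 91.0 against 372 CPM on the P0 plate, 5.62-fold and 4.09-fold lower in Slc6a3 cells. Of the 5 members that were higher on VGAT+Pitx3 than on VGAT plates, Gria3, Grid1, Cacng3 and Grik4 were lower in Slc6a3 cells than in the rest of both plates, and Shisa6 went opposite ways. Gria3 was at 339 against 741 CPM on the E16 plate and 379 against 745 CPM on the P0 plate. Grid1 was at 247 against 594 CPM on the E16 plate and 221 against 457 CPM on the P0 plate. Cacng3 was at 88.0 against 198 CPM on the E16 plate and 111 against 208 CPM on the P0 plate. Grik4 was less apart, at 107 against 175 CPM on the E16 plate and 144 against 211 CPM on the P0 plate, and Shisa6 was at 96.2 against 145 CPM on the E16 plate and 157 against 124 CPM on the P0 plate. Grik1 and Grik2 were lower there too. Grik1 was at 306 against 565 CPM on the E16 plate and 239 against 696 CPM on the P0 plate. Grik2 was at 171 against 395 CPM on the E16 plate and 166 against 567.8 CPM on the P0 plate. Gria2 was somewhat higher, at 1025 against 855 CPM on the E16 plate and 1011 against 793 CPM on the P0 plate, and Grm7 went opposite ways on the 2 plates. These levels were scaled within this set of sums and are not on quite the same scale as the plate levels.

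**Figure D4:**
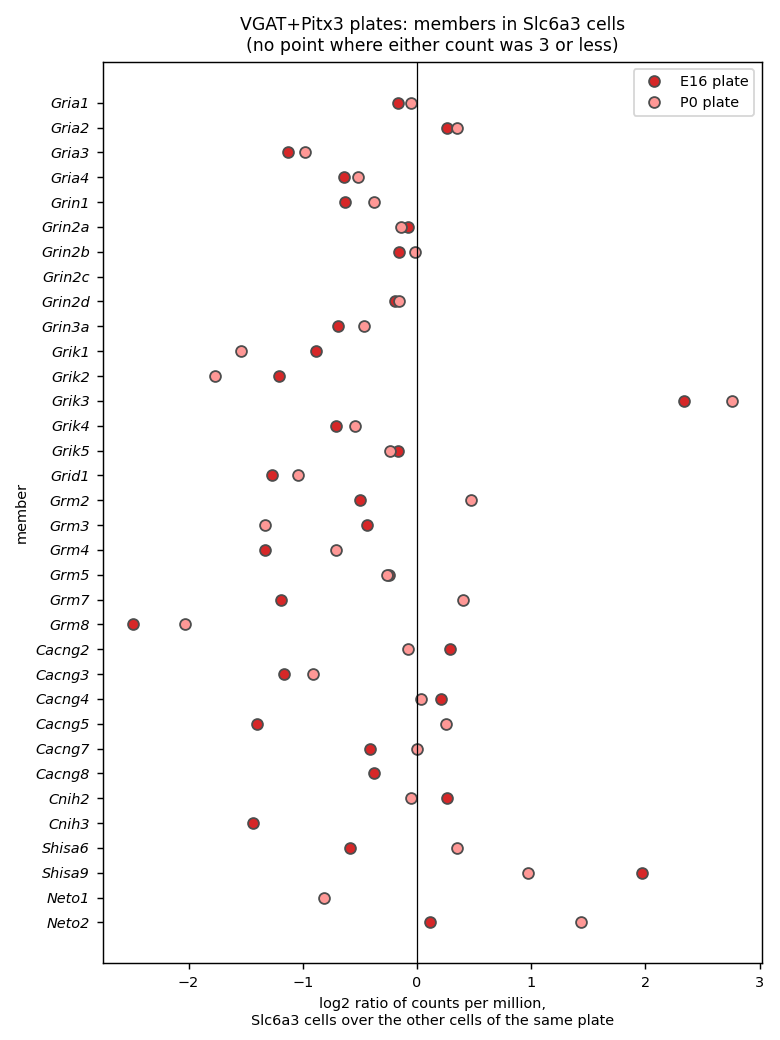
Log2 ratio of CPM (horizontal axis) in Slc6a3 cells over the other cells of the same VGAT+Pitx3 plate for each member, with 1 point for the E16 and 1 for the P0 plate. Grik3 and Shisa9 lie to the right on both plates and Grm8, Grik2 and Grik1 to the left, and sums of 3 counts or less have no point.

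Cells of the VGAT plates were then split by Six3, Pax5, Otx2 or Nkx2-2, transcription factor genes that mark groups of ventral midbrain GABAergic neurons. Each set of marker cells was compared with the other cells of the same plates, with the plate as a block. The 4 comparisons share cells, since the marker cells of 1 comparison are among the other cells of the next, so directions under different markers are not independent of each other. There were 527 Six3, 248 Otx2 and 312 Nkx2-2 cells on 7 plates and 236 Pax5 cells on 6 plates, since VGAT P0 replicate 1 had fewer than 5. Of 33 members, 3 differed in Six3 cells (2.69% of 12803 genes), 8 in Pax5 cells (5.23% of 12090), 10 in Otx2 cells (6.16% of 11641) and 5 in Nkx2-2 cells (3.1% of 12139). In Otx2 cells, whose median depth was 0.606 to 1.15 times that of the other cells, 5 members were higher and 5 lower, against 3.28% and 2.88% of all genes.

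**Figure D5:**
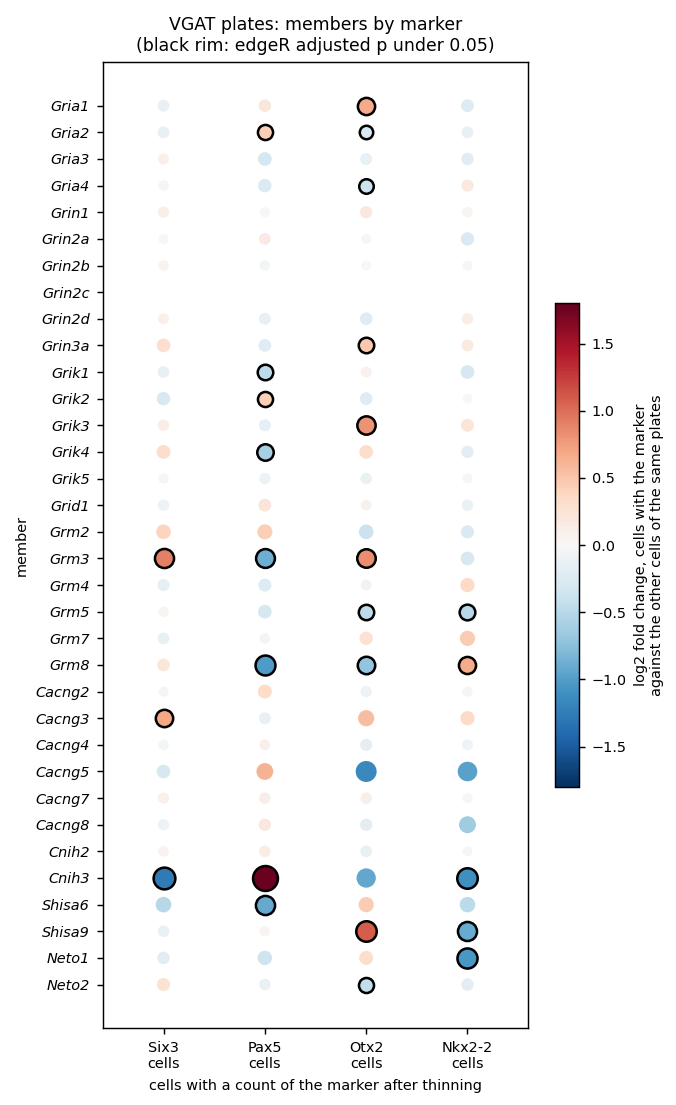
Log2 fold change (colour, and area by its size) of each member in cells with Six3, Pax5, Otx2 or Nkx2-2 against the other cells of the same VGAT plates, with a black rim where edgeR's adjusted p was under 0.05. Grm3 is higher in Six3 and Otx2 cells and lower in Pax5 cells, and Cnih3 is higher in Pax5 cells and lower in Six3 and Nkx2-2 cells, but the Grm3 calls in Otx2 and Pax5 cells are lost in spliced counts, and the Cnih3 calls in Six3 and Nkx2-2 cells hold under 8 and 2 of 12 alternatives.

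In Six3 cells, 2 members were higher and 1 lower (1.28% and 1.41% of all genes). Grm3 lay between 106 and 223 CPM (median 189) in the cells with the marker and between 70.1 and 137 CPM (median 101) in the other cells. It was higher in 6 of the 7 plates, all but VGAT P0 replicate 2, which carries the glial markers, with a log2 fold change of 0.91 (SE 0.13, edgeR adjusted p = 7.1e-04). Without that plate the log2 fold change was 1.05 (adjusted p = 6.7e-06). Cacng3 lay between 78.1 and 124 CPM (median 81.1) in the cells with the marker and between 37.6 and 69.0 CPM (median 61.5) in the other cells. It was higher in all 7 plates, with a log2 fold change of 0.70 (SE 0.09, edgeR adjusted p = 2.9e-04). Cnih3 lay between 3.76 and 11.0 CPM (median 5.29) in the cells with the marker and between 5.37 and 23.1 CPM (median 14.2) in the other cells. It was lower in 6 of the 7 plates, with a log2 fold change of -1.28 (SE 0.27, edgeR adjusted p = 0.0156) and only 51 counts in Six3 cells. Cnih3 was not called without VGAT E16 replicate 3 or 4, with no plate block or with cells thinned to 8000 counts (adjusted p between 0.0578 and 0.442), and its log2 fold change was -0.72 with cells thinned to 8000 counts. In the pathway list, the scaffold Dlgap1 was lower (log2 fold change -0.56, SE 0.08, edgeR adjusted p = 6.1e-04) and Olfm1 higher (log2 fold change 0.26, SE 0.06, edgeR adjusted p = 0.0176).

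In Pax5 cells, 3 members were higher and 5 lower (2.7% and 2.52% of all genes). Cnih3 lay between 5.04 and 37.9 CPM (median 24.4) in the cells with the marker and between 4.28 and 11.3 CPM (median 8.22) in the other cells. It was higher in 5 of the 6 plates, with a log2 fold change of 1.78 (SE 0.33, edgeR adjusted p = 0.00201), on 119 counts in Pax5 cells. Gria2 and Grik2 were each higher on 6 of 6 plates. Gria2 lay between 766 and 1258 CPM (median 1032) in the cells with the marker and between 591 and 906 CPM (median 784) in the other cells, with a log2 fold change of 0.45 (SE 0.07, edgeR adjusted p = 7.6e-04). Gria2 was not called with no plate block (adjusted p = 0.144). Grik2 lay between 736 and 1722 CPM (median 1255) in the cells with the marker and between 621 and 1244 CPM (median 828.6) in the other cells, with a log2 fold change of 0.44 (SE 0.08, edgeR adjusted p = 0.00201). Grik2 was not called with no plate block (adjusted p = 0.466). The lower genes included 2 metabotropic receptors. Grm3 lay between 55.3 and 104 CPM (median 73.6) in the cells with the marker and between 108 and 170.2 CPM (median 128) in the other cells. It was lower in all 6 plates, with a log2 fold change of -0.87 (SE 0.11, edgeR adjusted p = 4.0e-05). Grm3 was not called in spliced counts (adjusted p = 0.552), and its log2 fold change was -0.37 in spliced counts. Grm8 lay between 93.8 and 314 CPM (median 159.6) in the cells with the marker and between 244 and 382 CPM (median 324) in the other cells. It was lower in 5 of the 6 plates, with a log2 fold change of -1.02 (SE 0.19, edgeR adjusted p = 0.00259). Grm8 was not called in spliced counts or with cells thinned to 8000 counts (adjusted p between 0.137 and 0.240), and its log2 fold change was -0.41 with cells thinned to 8000 counts.

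Kainate receptor subunits and Shisa6 made up the rest of the lower genes of Pax5 cells. Grik4 lay between 41.7 and 70.5 CPM (median 58.8) in the cells with the marker and between 67.1 and 98.4 CPM (median 80.6) in the other cells, lower in all 6 plates, with a log2 fold change of -0.59 (SE 0.14, edgeR adjusted p = 0.0155). Grik4 was not called without VGAT E16 replicate 3 or 4, with DESeq2, with no plate block or in spliced counts (adjusted p between 0.0561 and 0.301). Grik1 lay between 235 and 434 CPM (median 311) in the cells with the marker and between 264 and 569 CPM (median 484) in the other cells, lower in 5 of the 6 plates, with a log2 fold change of -0.49 (SE 0.12, edgeR adjusted p = 0.0230). Grik1 was not called without VGAT E16 replicate 1, 2, 3 or 4, with DESeq2, with no plate block or with cells thinned to 8000 counts (adjusted p between 0.0668 and 0.278), and its log2 fold change was -0.31 with cells thinned to 8000 counts. Shisa6 lay between 15.9 and 166 CPM (median 32.5) in the cells with the marker and between 44.1 and 143 CPM (median 68.1) in the other cells, lower in 4 of the 6 plates, with a log2 fold change of -0.92 (SE 0.25, edgeR adjusted p = 0.0406). Shisa6 was not called without VGAT E16 replicate 3 or 4 or VGAT P0 replicate 2, with DESeq2, with no plate block, in spliced counts or with cells thinned to 8000 counts (adjusted p between 0.0809 and 0.459), and its log2 fold change was -0.54 in spliced counts and -0.59 with cells thinned to 8000 counts. Homer2 and the scaffold Dlg2 were higher (log2 fold change 0.84, SE 0.14, edgeR adjusted p = 9.9e-04 and log2 fold change 0.48, SE 0.10, edgeR adjusted p = 0.00382), and Grip2 was lower (log2 fold change -0.72, SE 0.17, edgeR adjusted p = 0.0121).

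In Otx2 cells, the AMPA receptor subunits went in both directions. Gria1 lay between 519.7 and 1031 CPM (median 821) in the cells with the marker and between 373 and 649.8 CPM (median 463) in the other cells. It was higher in all 7 plates, with a log2 fold change of 0.68 (SE 0.11, edgeR adjusted p = 8.7e-04). Gria4 lay between 393 and 594 CPM (median 517) in the cells with the marker and between 552 and 782 CPM (median 702) in the other cells. It was lower in all 7 plates, with a log2 fold change of -0.39 (SE 0.07, edgeR adjusted p = 0.00136). Gria4 was not called with no plate block or in spliced counts (adjusted p between 0.0670 and 0.115). Gria2 lay between 519.6 and 932 CPM (median 688) in the cells with the marker and between 668 and 1015 CPM (median 821) in the other cells, lower in all 7 plates, with a log2 fold change of -0.28 (SE 0.06, edgeR adjusted p = 0.0109). Gria2 was not called without VGAT E16 replicate 4 or with no plate block (adjusted p between 0.0602 and 0.468). Among kainate receptor genes, Grik3 lay between 94.6 and 238 CPM (median 155) in the cells with the marker and between 42.8 and 124 CPM (median 94.5) in the other cells. It was higher in all 7 plates, with a log2 fold change of 0.81 (SE 0.10, edgeR adjusted p = 2.6e-05). The NMDA receptor subunit Grin3a (GluN3A), which lowers calcium flow and is typical of young neurons, lay between 306 and 572 CPM (median 505) in the cells with the marker and between 240.1 and 458 CPM (median 339) in the other cells, with a log2 fold change of 0.49 (SE 0.11, edgeR adjusted p = 0.00939). Grin3a was not called with no plate block (adjusted p = 0.0710).

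The metabotropic receptors of Otx2 cells also split. Grm3 lay between 121 and 330.0 CPM (median 227) in the cells with the marker and between 94.5 and 163 CPM (median 102) in the other cells, higher in all 7 plates, with a log2 fold change of 0.83 (SE 0.15, edgeR adjusted p = 0.00186). Grm3 was not called in spliced counts (adjusted p = 0.692), and its log2 fold change was 0.25 in spliced counts. Grm5 lay between 334 and 513 CPM (median 376) in the cells with the marker and between 483 and 621 CPM (median 589.9) in the other cells, with a log2 fold change of -0.48 (SE 0.10, edgeR adjusted p = 0.00478). Grm5 was not called with cells thinned to 8000 counts (adjusted p = 0.147). Grm8 lay between 104 and 338 CPM (median 249) in the cells with the marker and between 277 and 481 CPM (median 336) in the other cells, lower in 6 of the 7 plates, with a log2 fold change of -0.71 (SE 0.15, edgeR adjusted p = 0.00794). Grm8 was not called with no plate block (adjusted p = 0.131). Of the auxiliary subunits, Shisa9 lay between 58.2 and 203 CPM (median 146) in the cells with the marker and between 34.5 and 124 CPM (median 68.3) in the other cells, with a log2 fold change of 1.10 (SE 0.23, edgeR adjusted p = 0.00571). Shisa9 was not called with no plate block or in spliced counts (adjusted p between 0.0815 and 0.0907), and its log2 fold change was 0.72 in spliced counts. Neto2 lay between 123 and 214 CPM (median 143) in the cells with the marker and between 151 and 227 CPM (median 197) in the other cells, lower in 6 of the 7 plates, with a log2 fold change of -0.44 (SE 0.12, edgeR adjusted p = 0.0351). Neto2 was not called without VGAT E16 replicate 1, 2, 3 or 4 or VGAT P0 replicate 2 or 3, with DESeq2, with no plate block, in spliced counts or with cells thinned to 8000 counts (adjusted p between 0.0503 and 0.174). The calcineurin subunit Ppp3ca was higher (log2 fold change 0.41, SE 0.06, edgeR adjusted p = 3.9e-04), and Dlgap2 and the pentraxin receptor Nptxr were lower (log2 fold change -0.49, SE 0.13, edgeR adjusted p = 0.0264 and log2 fold change -0.40, SE 0.11, edgeR adjusted p = 0.0304).

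In Nkx2-2 cells, 1 member was higher and 4 lower (1.18% and 1.92% of all genes). Grm8 lay between 277 and 609 CPM (median 504) in the cells with the marker and between 227 and 389 CPM (median 261) in the other cells. It was higher in 6 of the 7 plates, with a log2 fold change of 0.67 (SE 0.11, edgeR adjusted p = 0.00233). Grm8 was not called with no plate block or in spliced counts (adjusted p between 0.0763 and 0.441), and its log2 fold change was 0.44 in spliced counts. Shisa9 lay between 34.7 and 72.6 CPM (median 48.3) in the cells with the marker and between 59.1 and 142 CPM (median 85.6) in the other cells. It was lower in all 7 plates, with a log2 fold change of -0.91 (SE 0.11, edgeR adjusted p = 9.8e-05). Neto1 lay between 13.2 and 55.4 CPM (median 36.1) in the cells with the marker and between 50.7 and 130.4 CPM (median 95.4) in the other cells. It was also lower in all 7 plates, with a log2 fold change of -1.04 (SE 0.21, edgeR adjusted p = 0.00885). Neto1 was not called without VGAT E16 replicate 4 (adjusted p = 0.0642). Grm5 lay between 323 and 502 CPM (median 412) in the cells with the marker and between 464 and 669 CPM (median 599) in the other cells, with a log2 fold change of -0.51 (SE 0.10, edgeR adjusted p = 0.00966). Cnih3 lay between 1.98 and 14.3 CPM (median 5.54) in the cells with the marker and between 5.74 and 18.5 CPM (median 11.7) in the other cells, lower in 6 of the 7 plates, with a log2 fold change of -1.10 (SE 0.29, edgeR adjusted p = 0.0466), on 34 counts in Nkx2-2 cells. Cnih3 was not called without VGAT E16 replicate 1, 2, 3 or 4 or VGAT P0 replicate 2 or 3, with DESeq2, with no plate block, in spliced counts or with cells thinned to 8000 counts (adjusted p between 0.0549 and 0.290). Of the pathway list, Homer2 (log2 fold change -0.55, SE 0.14, edgeR adjusted p = 0.0326), the PDZ protein Grip1 (log2 fold change -0.48, SE 0.07, edgeR adjusted p = 8.3e-04) and Dlgap1 (log2 fold change -0.43, SE 0.09, edgeR adjusted p = 0.0100) were lower and Olfm1 was higher (log2 fold change 0.23, SE 0.05, edgeR adjusted p = 0.0299).

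Reads in introns carried much of the signal of these long genes. Over all plates the intronic share was over 50% for 17 of the 34 members and under 10% for 7, with 91.8% for Grm8, 88.5% for Grm7, 86.6% for Grm3 and 85.3% for Grik2, and 4.16% for Grin2d and 0.183% for Cnih2. The share of Gria3 was 61.1% on VGAT and 56.4% on VGAT+Pitx3 plates, and that of Neto1 58.9% and 69.2%. With spliced counts alone, 12 members were called between the sorts. Grm2 was added (log2 fold change 0.84, adjusted p = 0.0489), and Shisa6 (adjusted p = 0.160) and Cnih3 (adjusted p = 0.123) were lost from the 13. Between the stages, spliced counts lost Grm4 (adjusted p = 0.0635) and Neto1 (adjusted p = 0.0954) from the 6 calls and added Grik2, lower, and Grm5, higher at P0. Grm5 had a log2 fold change of 0.62 (adjusted p = 0.0284) in spliced counts and of 0.14 (adjusted p = 0.484) in all counts, and its intronic share was 71.3% at E16 and 57.5% at P0 on VGAT plates. The strand of the counting is not given in the sources used here, so reads of Grin2d and its antisense neighbour Kdelr1 (5046 and 1816 counts), and of Cnih2 and Yif1a (21823 and 359 counts), may not be fully told apart.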

How the data were processed

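Single cells were sorted into 384-well plates and sequenced by SORT-seq, a plate version of CEL-seq2 that counts unique molecular identifiers (UMIs). Reads were mapped with STAR to mm10 by the authors, and the deposited values are expected counts per gene and well, corrected by the authors for UMIs shared by chance, in a table of all reads and a table of spliced reads.

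Wells were kept from 2000 genes upwards when they held no more than 50000 counts and under 15% mitochondrial counts. Counts were summed per plate and rounded to whole numbers. No doublet caller was run. Plate sums were tested with edgeR 4.0.16 (quasi-likelihood, TMM, filterByExpr, R 4.3.3) over all genes with Benjamini-Hochberg adjustment at 0.05. The comparison of sorts had stage as a covariate, and cells with a marker gene, defined after thinning to 4000 counts, were compared with the plate as a block. CPM values are TMM-scaled, separately for each set of marker cells. All 34 genes are accounted for, and those called in any comparison are given by plate or, over more than 5 plates, by the lowest, median and highest, and at most 5 called genes of the pathway list per comparison are named with their fold changes. The genes and lists were chosen with earlier results of these data known. Gene positions are from the GENCODE annotation of GRCm38. Alternatives included DESeq2 1.42.0, RLE factors, other filters, spliced counts, plates left out and a replicate block. The scripts were tested on simulated data.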

Additional observations from a re-analysis of the deposited data

How the results depend on the processing

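No member changed direction where it was called, and the counts below are of genes, or of members where said so. Between the sorts, 1306 genes and 13 members were called, 625 to 1397 genes and 10 to 13 members when 1 plate was left out. For the stages (624 genes and 6 members), DESeq2 called 944 genes, no filter on low counts 1588 genes and 10 members (Gria2, Grid1, Grik2 and Grik3 lower and Grin2d higher among them), and no upper limit on counts 3 members, and leaving out 1 plate gave 76 to 833 genes and 0 to 6 members. For the interaction (0 genes), DESeq2 called 3, no filter 66 and the plates whose labels name 1 stage 6, and leaving out 1 plate gave 0. In Six3 cells (344 genes and 3 members), no filter gave 694 genes and 7 members, no plate block 57 genes and cells thinned to 8000 counts 184 genes, with 219 to 377 genes and 3 to 4 members when 1 plate was left out. In Pax5 cells (632 genes and 8 members), no plate block gave 242 genes and 3 members, and DESeq2 and spliced counts 5 members each, with 362 to 635 genes and 5 to 9 members when 1 plate was left out. In Otx2 cells (717 genes and 10 members), no filter gave 1135 genes, no plate block 306 genes and 4 members, and spliced counts 6 members, with 472 to 828 genes and 8 to 13 members when 1 plate was left out. In Nkx2-2 cells (376 genes and 5 members), no filter gave 702 genes and 12 members and no plate block 92 genes and 3 members, with 232 to 417 genes and 3 to 6 members when 1 plate was left out. The cause of these differences was not tested.

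The replicate numbers of the VGAT plates are shared between stages, but same-numbered plates had deviations that correlated at only -0.03, 0.08 and 0.02, and not every plate correlated best with its own number, so the numbers were not taken to pair the plates. With a replicate block, 914 genes and 12 members were called between the sorts (Gria1 and Cnih3 were lost and Grm8 was added), 226 genes and 4 members between the stages, and 0 genes in the interaction. Single called members kept their call between the sorts in 100 of 117 fits without 1 plate and in 109 of 117 other alternatives, but between the stages in 13 of 42 and 37 of 54. Cnih3 and Cacng5 had the fewest counts of the called members (310 and 302 in all).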
